A study of Mus musculus with 8 samples.

Results

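The genes described here encode the nuclear subunits of the mitochondrial respiratory chain and ATP synthase, as measured by RNA-seq in livers of neonatal mice given triclosan (TCS), an antimicrobial agent, or vehicle. They were chosen by symbol: Ndufa, Ndufb, Ndufc, Ndufs and Ndufv for complex I, Sdha to Sdhd for complex II, Uqcr for complex III, Cox4 to Cox8 for complex IV and Atp5 for complex V, leaving out assembly factors and pseudogenes and asking for at least 10 counts in each library. Of 24411 genes in the count table, 96 had such a symbol, 11 of these were left out as assembly factors or pseudogenes, and 78 of the remaining 85 met the minimum. Complex I had 35 genes, complex II 4, complex III 8, complex IV 14 and complex V 17, with Ndufa4 and Ndufa4l2 placed in complex IV, where the NDUFA4 protein is now assigned. All 78 were among the 13633 genes tested. Atp5s and Atp5sl entered by their prefix, although Atp5sl is now known as Dmac2, a complex I assembly factor, and Atp5s as its relative Dmac2l.

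The respiratory chain passes electrons from NADH (complex I) and succinate (complex II) through ubiquinone to complex III, then through cytochrome c to complex IV, which reduces oxygen. Complexes I, III and IV pump protons across the inner mitochondrial membrane, and complex V, the ATP synthase, uses their return to make ATP. Hepatocytes are rich in mitochondria, whose NAD+ regeneration serves fatty acid oxidation. Further subunits of the chain are encoded in mitochondrial DNA. None of these 13 genes was found by symbol among the deposited counts, so they could not be analysed here.

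All mice were on the C57BL/6 background and carried the human UGT1 locus in place of the mouse Ugt1 genes (hUGT1) together with floxed Atf4 alleles. hUGT1/Atf4F/F mice kept Atf4, whose product is a transcription factor of the stress response to amino acid shortage and unfolded proteins, and hUGT1/Atf4ΔHep mice had lost it through Alb-Cre, a Cre driven by the albumin promoter and so aimed at hepatocytes. Male and female pups received vehicle or 50 mg/kg TCS by oral gavage on 4 consecutive days, with an age of 10 days given for the animal work and 14 days for RNA-seq. Each library held liver RNA pooled from 2 mice, and each of the 4 groups had 2 libraries, so that p-values measure the spread between pools. The study examined how TCS induces hepatic human UGT1A1, the enzyme that conjugates bilirubin, and used the deletion to examine the place of ATF4 in it.

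Total counts ran from 11624143 to 25573210 a library. Levels are given in CPM, the usual scaling of a gene's counts to the total of its library, after TMM normalisation. Atf4 stood at 58.6 to 62.8 CPM in the 4 hUGT1/Atf4F/F libraries and at 17.4 to 19.7 CPM in the 4 hUGT1/Atf4ΔHep libraries, without overlap. The hepatocyte markers (Alb, Apoa1, Ttr, Cps1, Serpina1b, Fgb and Ahsg) summed to between 155457 and 195941 CPM, so the tissue label holds. The pools differed in sex: Xist, expressed from the inactive X chromosome, was at 718 to 778 CPM in 4 libraries (both hUGT1/Atf4F/F TCS, ΔHep vehicle 1 and ΔHep TCS 2) and at 0.346 to 23.2 CPM in the other 4. The Y-linked genes Ddx3y, Eif2s3y, Kdm5d and Uty summed to 73.8 to 92.9 CPM in the Xist-high libraries. They summed to 163 to 179 CPM in the Xist-low ones, so the Xist-high pools held RNA of both sexes. The summed markers of skeletal muscle were at 415 and 67.0 CPM in vehicle-treated and 131 and 482 CPM in TCS-treated hUGT1/Atf4F/F libraries, and at 22.6 and 8.87 CPM against 3.98 and 587 CPM in hUGT1/Atf4ΔHep.

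Several of these genes carry, at their promoters, the sequence bound by NRF1, a transcription factor known to act on nuclear genes of the respiratory chain. Promoters of 300 bases (250 before the annotated start and 50 from it on, RefSeq, GRCm38.p6) were matched to 63 of the 78 genes. The 10 letters searched for NRF1, given in capitals in the sites printed here, read the same on both strands and were found in 5 of the 63 (7.94%) and in 1.07% of the promoters of 27025 genes. The sites are printed with 10 bases on either side, because they include Uqcrc1, which is described further under complex III.
Uqcrc1, chr9:108936668-108936697, plus strand: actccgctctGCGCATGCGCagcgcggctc
Cox6a1, chr5:115349101-115349130, minus strand: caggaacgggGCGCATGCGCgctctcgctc
Ndufa11, chr17:56717692-56717721, plus strand: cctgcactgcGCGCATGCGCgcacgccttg
Atp5g2, chr15:102671070-102671099, minus strand: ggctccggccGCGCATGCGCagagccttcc
Atp5k, chr5:108434430-108434459, minus strand: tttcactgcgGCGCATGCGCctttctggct
The motif began 60 bases before the RefSeq start in Ndufa11, 42 bases before it in Atp5g2, 50 bases before it in Atp5k and 162 bases before it in Cox6a1, whereas in Uqcrc1 it began 30 bases after. The flanks differed from gene to gene, and only the capitals were shared by rule.

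The letters of other factors were counted in the same windows on both strands. CCGGAAG, for GABPA, was in 16 of the 63 promoters (25.4%, against 9.93% of all genes). AAGATGGC, for YY1, was in 9 (14.3%, against 3.19%), and AAGGTCA, the element of the estrogen-related receptors (ERR), in 7 (11.1%, against 5.38%). The PPARα element, AGGTCA in direct repeat with 1 base between, shares letters with the preceding element and was in none of the 63 and in 0.0481% of all genes. TGATGNAAT, the composite element of ATF4, was in none of the 63 and in 1.08% of all genes. These are matches of letters and not measured binding. The 120 bases before the annotated start are shown for 3 genes whose levels are described further on: Uqcr11 with its GABPA letters in capitals, Atp5g3 with the ERR element in capitals as read on the other strand (TGACCTT), and Cox6b2, whose stretch held none of the motifs searched.
Uqcr11, chr10:80406831-80406950, minus strand: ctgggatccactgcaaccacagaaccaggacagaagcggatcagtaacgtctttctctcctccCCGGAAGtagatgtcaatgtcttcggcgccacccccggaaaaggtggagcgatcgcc
Atp5g3, chr2:73911327-73911446, minus strand: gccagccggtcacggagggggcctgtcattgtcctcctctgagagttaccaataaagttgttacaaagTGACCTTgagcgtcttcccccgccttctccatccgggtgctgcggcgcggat
Cox6b2, chr7:4753095-4753214, minus strand: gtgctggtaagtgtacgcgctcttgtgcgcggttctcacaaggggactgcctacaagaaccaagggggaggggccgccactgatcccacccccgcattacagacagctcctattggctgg

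The 78 genes together took 1.06% to 1.21% of the counts of a library. Complex V held 40.9% of their summed CPM, complex I 23.4%, complex IV 15.03%, complex III 11.8% and complex II 8.96%. Divided by transcript length (the median of a gene's basic protein-coding transcripts in GENCODE M21, found for 77 genes), 75 of the 77 lay above the median of 12756 genes, 6.22 CPM per kb, and 68 were in the top 10%. The highest was Atp5b, the catalytic β subunit of the ATP synthase, at 771 CPM per kb. The others at the head of their complexes were Uqcrq, a small subunit of complex III, at 394 CPM per kb, Cox6a1, the liver form of a complex IV subunit, at 361 CPM per kb, Ndufa6, an accessory subunit of complex I, at 242 CPM per kb, and Sdha, the flavoprotein of complex II, at 172 CPM per kb. The lowest of each complex were Ndufb2 at 12.3, Sdhc at 88.2, Uqcrc2 at 135, Ndufa4l2 at 2.98 and Atp5s at 3.76 CPM per kb. The place of Ndufb2 depends on the length used: at 2413 bases it had 29.6 CPM, while Ndufc1, at 782 bases, had 23.4 CPM. The plot of levels per kb shows that complexes II and III were held within a narrow band, while complexes IV and V each had a gene below the median of all genes. That of complex V was Atp5s, which entered by its prefix, and the next lowest there was Atp5g1 at 68.3 CPM per kb.

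**Figure D1:**
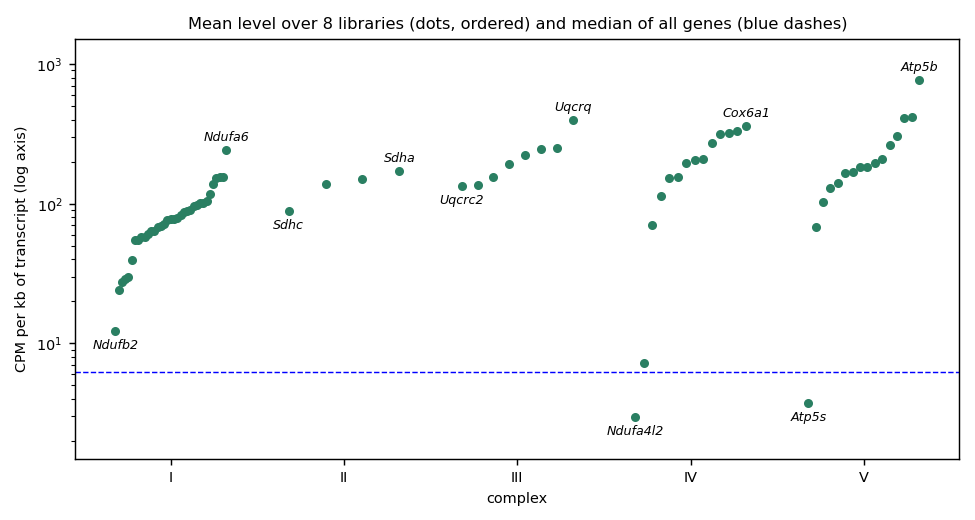
Transcript level of 77 respiratory chain genes, as mean CPM per kb of transcript over 8 libraries (vertical log axis), by complex (horizontal axis), with the genes ordered within a complex and its highest and lowest named. The dashed line is the median of 12756 genes (6.22 CPM per kb), and Ndufa4l2 (2.98) and Atp5s (3.76) are the dots below it.

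TCS-treated livers had a higher summed level of respiratory chain transcripts in both genotypes, by a small amount. In hUGT1/Atf4F/F mice the 78 genes summed to 10974 and 10746 CPM under vehicle and to 11466 and 11972 CPM under TCS, 7.91% higher on average. In hUGT1/Atf4ΔHep mice they summed to 11055 and 10898 CPM under vehicle and to 11890 and 11756 CPM under TCS, 7.71% higher. All 4 TCS libraries lay above all 4 vehicle libraries, as they did for the sum of each complex taken alone. Complex III had the widest margin, at 11.6% in hUGT1/Atf4F/F and 9.57% in hUGT1/Atf4ΔHep. Complex I was 8.83% and 8.64% higher, complex II 6.21% and 9.40%, complex V 7.0% and 7.48%, and complex IV 7.15% and 4.53%, in the same order of genotypes. These sums are descriptions with no test.

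**Figure D2:**
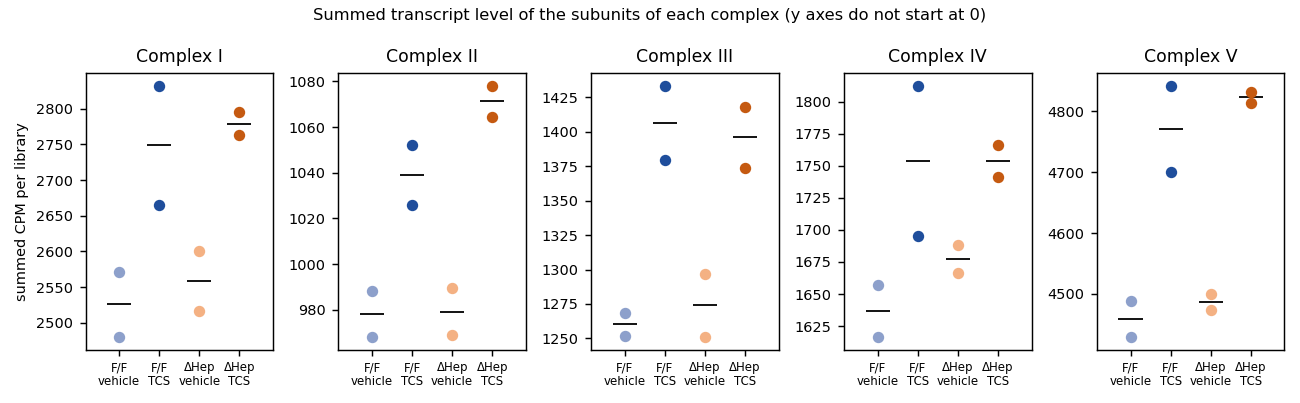
Summed CPM of the genes of each complex (vertical axes, which do not start at 0) in each of 8 libraries (dots, 2 per group, with the group mean as a line) by genotype and treatment. In every panel the 4 TCS libraries lie above the 4 vehicle libraries, for example 1374 to 1433 against 1251 to 1297 CPM for complex III.

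Other quantities moved with treatment in the same libraries. The summed hepatocyte markers in hUGT1/Atf4F/F came to 188153 and 195941 CPM with vehicle, to 178285 and 155457 CPM with TCS, and in hUGT1/Atf4ΔHep to 181588 and 192964 against 173735 and 160027 CPM. All 7 hepatocyte markers had a log2 fold change below 0 for TCS (median -0.15), and none passed the test. The 7 markers of pancreatic acinar cells summed to 8.11 and 35.5 CPM under vehicle and to 44.6 and 31.2 CPM under TCS in hUGT1/Atf4F/F. In hUGT1/Atf4ΔHep they summed to 14.4 and 10.8 against 77.98 and 72.5 CPM. For TCS averaged over genotypes 3 of the 7 were called higher (against 2.02% of all genes tested), and 0 in either single genotype. Markers of sinusoidal endothelium summed to 491 and 585 CPM under vehicle and 472 and 444 CPM under TCS in hUGT1/Atf4F/F, and to 455 and 537 against 444 and 437 CPM in hUGT1/Atf4ΔHep. Those of neutrophils were lower under TCS without overlap in hUGT1/Atf4F/F (17.3 to 17.7 against 29.1 to 32.8 CPM), and those of stellate cells in hUGT1/Atf4ΔHep (1188 to 1302 against 1472 to 1664 CPM), while each overlapped in the other genotype. Kupffer cell markers were lower under TCS without overlap in hUGT1/Atf4ΔHep (343 to 424 against 478 to 535 CPM). Erythroid markers were too (35.3 to 36.3 against 47.4 to 52.3 CPM), and both sums overlapped in hUGT1/Atf4F/F. The globin genes listed among the erythroid markers (Hbb-bs, Hbb-bt, Hba-a1 and Hba-a2) were at 0 in every library. Most of the erythroid sum was Alas2, at 32.5 and 31.96 CPM under TCS and 41.6 and 45.99 CPM under vehicle in hUGT1/Atf4ΔHep. None of the endothelial, neutrophil, stellate, Kupffer cell or erythroid markers tested passed for averaged TCS. The part of these cell types in the respiratory chain values was not tested. For muscle, the replicate library with more muscle markers had the higher respiratory chain sum in 3 of the 4 groups. In the fourth, ΔHep TCS, it was the library with the lowest muscle markers of all 8 (ΔHep TCS 1, at 3.98 CPM) that had the higher sum, the second highest of all 8. For sex, the hUGT1/Atf4ΔHep pools could be compared at like Xist. In the Xist-low pair (ΔHep vehicle 2 and ΔHep TCS 1) 72 of 78 genes were higher under TCS, with a median log2 difference of 0.12, and in the Xist-high pair (ΔHep vehicle 1 and ΔHep TCS 2) 58 of 78, with a median of 0.06, where 49.1% and 49.95% of all genes tested were higher. In hUGT1/Atf4F/F both vehicle libraries were Xist-low and both TCS libraries Xist-high, so that sex makeup and TCS cannot be told apart there. In bulk tissue, fewer cells of a type and less RNA per cell cannot be told apart either.

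Gene by gene, the differences were small, and none passed the adjusted test within a single genotype. With edgeR's quasi-likelihood test and Benjamini-Hochberg adjustment over all genes tested, none of the 78 genes passed an adjusted p of 0.05 for TCS in hUGT1/Atf4F/F (0.513% of all genes tested were called higher and 0.044% lower) and none in hUGT1/Atf4ΔHep (0.616% and 0.0587%). DESeq2 also called none in either genotype. At an unadjusted p under 0.05, 15 were higher and none lower in hUGT1/Atf4F/F (19.2%, against 5.73% of all genes higher and 4% lower), and 19 were higher and none lower in hUGT1/Atf4ΔHep (24.4%, against 6.56% and 4.94%). The median log2 fold change of the 78 was 0.11 in hUGT1/Atf4F/F, where 72 lay above 0, and 0.08 in hUGT1/Atf4ΔHep, where 71 did. Of all genes tested 49.2% and 48.9% lay above 0.

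When the TCS effects of both genotypes were averaged, 2 of the 78 passed, both higher under TCS and both of complex III: Uqcrc1 and Uqcrc2. That is 2.6% of the 78, beside 2.02% of all genes tested called higher and 0.565% lower, so the share called was near the background. At an unadjusted p under 0.05, 30 of the 78 (38.5%) were higher and none lower, beside 9.41% and 7.75% of all genes. The 78 were measured more precisely, with a median SE of 0.049 against 0.095 for all genes tested. Shares at an unadjusted p or without overlap, also in the single genotypes, therefore lack a like background in all genes. A log2 fold change above 0 was found for 76 of the 78 (97.4%), with Ndufb6 and Ndufa8 the exceptions, and for 48.5% of all genes. The median was 0.09, against -0.01 for all genes tested.

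The levels themselves separated more often than the test called. In hUGT1/Atf4F/F both TCS libraries lay above both vehicle libraries for 49 of the 78 genes (62.8%, against 19.7% of all genes), and in no case below (19% of all genes). In hUGT1/Atf4ΔHep they lay above for 47 (60.3%, against 21.5%) and below for 1, Ndufa8 (1.28%, against 21.5%). The separation held in each genotype for 34 genes (43.6%, against 9.48%), and the reverse for none (7.65%). All 4 TCS libraries were above all 4 vehicle libraries for 29 genes (37.2%, against 7%) and below for none (5%). By complex these 29 were 11 of 35 in complex I, 3 of 4 in complex II, 4 of 8 in complex III, 3 of 14 in complex IV and 8 of 17 in complex V.

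**Figure D3:**
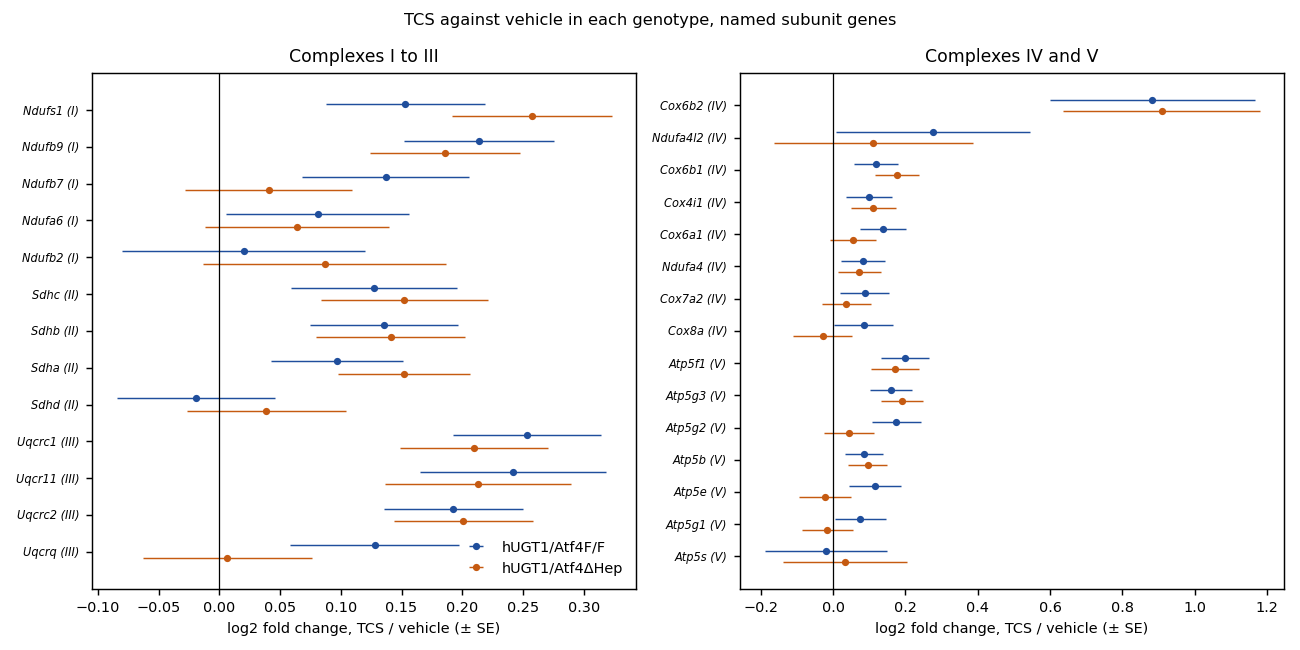
Fitted log2 fold change of TCS over vehicle (horizontal axis, with its standard error as a bar) for genes named by rule (vertical axis, complex in brackets), in hUGT1/Atf4F/F (blue) and hUGT1/Atf4ΔHep (orange). Most dots lie between 0 and 0.3, and Cox6b2 stands apart at 0.88 and 0.91.

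Complex III held the pair that passed the test. Uqcrc1 (chr9:108936633-108949623, GRCm38) encodes core protein 1 of the complex, a structural subunit facing the matrix. It stood at 233 and 230 CPM in vehicle-treated and 277 and 274 CPM in TCS-treated hUGT1/Atf4F/F livers, and at 241 and 243 CPM in vehicle-treated and 291 and 269 CPM in TCS-treated hUGT1/Atf4ΔHep livers. Every TCS library was above every vehicle library. The log2 fold change was 0.25 (SE 0.061) in hUGT1/Atf4F/F and 0.21 (SE 0.061) in hUGT1/Atf4ΔHep, and 0.23 (SE 0.043) averaged, with an edgeR adjusted p of 0.0303.

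Uqcrc2 (chr7:120635176-120659524) encodes core protein 2, the partner of the former. Its levels were 239 and 244 CPM under vehicle and 274 and 277 CPM under TCS in hUGT1/Atf4F/F, and 241 and 231 CPM against 273 and 270 CPM in hUGT1/Atf4ΔHep. The vehicle and TCS libraries did not overlap. The averaged log2 fold change was 0.20 (SE 0.040, edgeR adjusted p 0.0431), from 0.19 and 0.20 in the single genotypes. An exon of Uqcrc2 overlaps Pdzd9 on the other strand, and whether the counting used strand is not stated.

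Both calls rested on the full set of libraries. Without any one of the 8 libraries neither gene passed, at edgeR adjusted p values of 0.0616 to 0.129 for Uqcrc1 and 0.0728 to 0.176 for Uqcrc2, while the log2 fold changes stayed between 0.20 and 0.26 and between 0.18 and 0.21. With the sex makeup of the pools as a covariate they were at adjusted p of 0.0952 and 0.220. DESeq2 called both Uqcrc1 and Uqcrc2.

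The other subunits of complex III were divided. Uqcrfs1, the Rieske iron-sulfur protein, had an averaged log2 fold change of 0.16 (SE 0.049, edgeR adjusted p 0.138). Uqcr11, the smallest subunit and the one whose promoter is printed with its GABPA letters, stood at 91.8 and 87.2 CPM under vehicle and 100.01 and 112 CPM under TCS in hUGT1/Atf4F/F, and at 96.6 and 93.4 against 115 and 105 CPM in hUGT1/Atf4ΔHep, without overlap. Its averaged log2 fold change was 0.23 (SE 0.054, edgeR adjusted p 0.0707). The median over the core proteins and the Rieske protein was 0.20, and over the 5 small subunits (Uqcrb, Uqcrq, Uqcrh, Uqcr10 and Uqcr11) it was 0.07, with all 8 above 0. Cyc1, the cytochrome c1 of the same complex, lies outside the chosen symbols and was at 0.11 (SE 0.046, edgeR adjusted p 0.275).

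In complex I, which oxidizes NADH, no gene passed for the averaged effect, 13 of 35 were higher at an unadjusted p under 0.05 (against 9.41% of all genes), and 33 had a log2 fold change above 0 (against 48.5%). Ndufb9, an accessory subunit of the membrane arm, stood at 103 and 98.6 CPM under vehicle and 113 and 121 CPM under TCS in hUGT1/Atf4F/F, and at 104 and 103 against 118 and 118 CPM in hUGT1/Atf4ΔHep. The treatments did not overlap in either genotype, and the averaged log2 fold change was 0.20 (SE 0.044, edgeR adjusted p 0.0533). Ndufs1, the largest iron-sulfur subunit of the NADH-oxidizing arm, was at 155 and 147 CPM against 163 and 173 CPM in hUGT1/Atf4F/F, and at 141 and 145 against 165 and 177 CPM in hUGT1/Atf4ΔHep.

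Ndufs1 too had all TCS libraries above all vehicle libraries, at an averaged log2 fold change of 0.21 (SE 0.046, edgeR adjusted p 0.0598). The highest value of complex I was that of Ndufab1, the mitochondrial acyl carrier protein, at 0.26 (SE 0.071, edgeR adjusted p 0.108).

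Complex II, which is also the succinate dehydrogenase of the tricarboxylic acid cycle, had 3 of its 4 genes higher at an unadjusted p under 0.05 (against 9.41% of all genes) and none past the adjusted one. Sdha was at 481 and 474 CPM under vehicle and 511 and 510 CPM under TCS in hUGT1/Atf4F/F, and at 476 and 476 against 532 and 526 CPM in hUGT1/Atf4ΔHep. The replicate libraries lay close together and the treatments did not overlap. Its averaged log2 fold change was 0.12 (SE 0.038, edgeR adjusted p 0.144).

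Sdhb, the iron-sulfur subunit, and Sdhc, a membrane anchor, were similar at 0.14 (SE 0.043, edgeR adjusted p 0.147) and 0.14 (SE 0.048, edgeR adjusted p 0.187). Sdhd, the other membrane anchor, was at 188 and 181 CPM against 175 and 189 CPM in hUGT1/Atf4F/F and at 180 and 189 against 190 and 189 CPM in hUGT1/Atf4ΔHep. Its treatments overlapped, and the averaged log2 fold change was 0.01 (SE 0.046).

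In complex IV all 14 genes had an averaged log2 fold change above 0 (against 48.5% of all genes), at a median of 0.07, and none passed the adjusted p. The gene that stood apart by size was Cox6b2, the isoform of Cox6b known from testis, at a low level. Its CPM was 1.93 and 1.64 under vehicle and 2.78 and 3.83 under TCS in hUGT1/Atf4F/F, and 2.99 and 2.18 against 4.41 and 5.26 in hUGT1/Atf4ΔHep. Treatments separated within each genotype, although the higher hUGT1/Atf4ΔHep vehicle library lay above the lower hUGT1/Atf4F/F TCS library. The averaged log2 fold change was 0.90 (SE 0.196, edgeR adjusted p 0.0533), at 25 to 137 counts a library. The common isoform, Cox6b1, was at 150 and 145 CPM against 158 and 162 CPM in hUGT1/Atf4F/F and at 151 and 148 against 175 and 164 CPM in hUGT1/Atf4ΔHep, with an averaged log2 fold change of 0.15 (SE 0.043, edgeR adjusted p 0.124) and no overlap.

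The isoforms that liver uses were the abundant ones. Cox4i1, Cox6a1, Cox7a2, Cox8a and Ndufa4 had averaged log2 fold changes for TCS of 0.11, 0.10, 0.06, 0.03 and 0.08, none past the test, and that of Cox8a turned to -0.01 with sex makeup as a covariate. Ndufa4l2, an isoform of Ndufa4 known to rise in hypoxia, was at 1.92 to 3.32 CPM over the 8 libraries (averaged log2 fold change 0.19, SE 0.192). The isoforms typical of striated muscle fell below the minimum of 10 counts in at least 1 library: Cox6a2 ranged from 1 to 152 counts, Cox7a1 from 4 to 58 and Cox8b from 0 to 58. They were high where the muscle markers were high. Cox6a2 was at 3.30, 2.75 and 5.83 CPM in the 3 libraries with 415 to 587 CPM of muscle markers (F/F vehicle 1, F/F TCS 2 and ΔHep TCS 2), and at 0.0662 to 0.906 CPM in the other 5. For Cox6b2, the replicate library with more muscle markers had the higher level in each of the 4 groups, while ΔHep TCS 1, with the lowest muscle markers of all 8, had the second highest Cox6b2. The part of muscle in the Cox6b2 values was not tested. Also below the minimum were Cox4i2, at 5 to 10 counts, and Cox7b2, Cox8c and the complex I subunit Ndufs5, each listed at 0 in all 8 libraries. Just inside it were Cox6b2, Ndufa4l2 at 29 to 67 counts and Atp5s at 69 to 147.

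**Figure D4:**
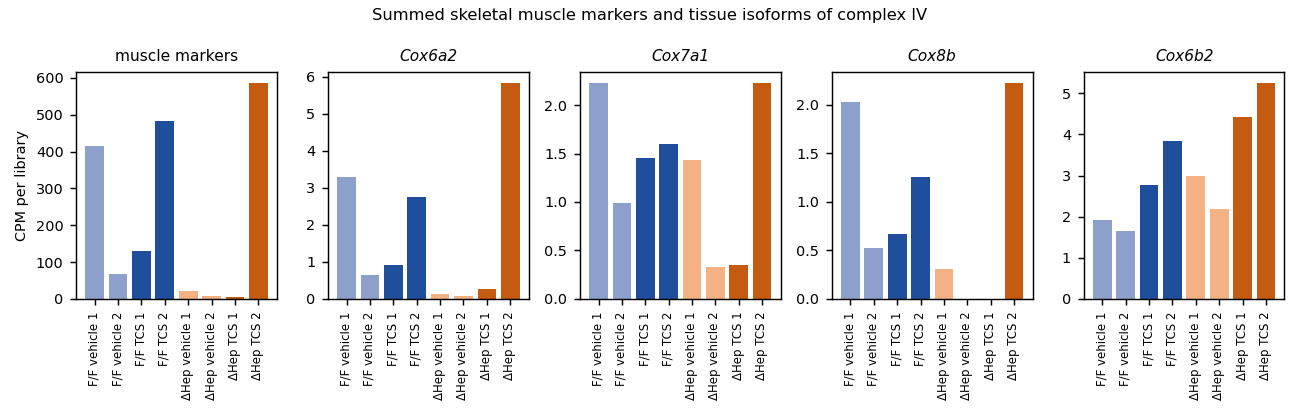
CPM in each of the 8 libraries (bars, axes from 0) of the 6 skeletal muscle markers summed, of the muscle isoforms Cox6a2, Cox7a1 and Cox8b, and of Cox6b2. Cox6a2 and Cox6b2 are both highest in ΔHep TCS 2, at 5.83 and 5.26 CPM, where muscle markers reach 587 CPM, and in ΔHep TCS 1, where muscle markers are at 3.98 CPM, they are at 0.260 and 4.41 CPM.

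In complex V all 17 genes were above 0 for the averaged effect (against 48.5% of all genes), with a median of 0.09, and 7 were higher at an unadjusted p under 0.05 (against 9.41%). The 17 include Atp5s and Atp5sl, which entered by their prefix, and the highest value, 0.22, was that of Atp5sl. Atp5g3 is one of the genes for subunit c, the ring that turns as protons pass, and all of them give the same mature protein. It stood at 287 and 274 CPM under vehicle and 310 and 318 CPM under TCS in hUGT1/Atf4F/F, and at 273 and 272 against 308 and 314 CPM in hUGT1/Atf4ΔHep. The treatments did not overlap, and the averaged log2 fold change was 0.18 (SE 0.041, edgeR adjusted p 0.0647). Of the other subunit c genes, Atp5g2 was at 0.11 (SE 0.048, edgeR adjusted p 0.292) and Atp5g1 at 0.03 (SE 0.050, edgeR adjusted p 0.813).

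Atp5f1, subunit b of the stalk that holds the catalytic head still, was at 288 and 272 CPM against 307 and 334 CPM in hUGT1/Atf4F/F and at 277 and 271 against 303 and 314 CPM in hUGT1/Atf4ΔHep. Here again all TCS libraries were the higher ones (averaged log2 fold change 0.19, SE 0.047, edgeR adjusted p 0.0861). The 5 genes of the catalytic F1 head (Atp5a1, Atp5b, Atp5c1, Atp5d and Atp5e) had a median of 0.11, the 4 of the peripheral stalk 0.07 and the 3 membrane subunits e, f and g 0.05. Atp5b, the most abundant of the 78, was at 1412 and 1436 CPM against 1513 and 1509 CPM in hUGT1/Atf4F/F and at 1426 and 1449 against 1539 and 1532 CPM in hUGT1/Atf4ΔHep. Its pools differed little, and the averaged log2 fold change was 0.09 (SE 0.038, edgeR adjusted p 0.264).

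Within complexes I, II and V the genes spread somewhat further than their own errors, and in complex III more so. For the averaged TCS effect the SD of the log2 fold changes was 0.07 in complex I against a median SE of 0.06, 0.06 against 0.04 in complex II, 0.09 against 0.05 in complex III and 0.06 against 0.05 in complex V. Complex IV had an SD of 0.22 against 0.05, an SD that includes Cox6b2 at 0.90. Its quartiles of 0.06 and 0.10 were close together, beside 0.06 and 0.20 in complex III. The longer transcripts tended to the larger values: over 77 genes Spearman's rho between transcript length and the log2 fold change was 0.11 in hUGT1/Atf4F/F and 0.32 in hUGT1/Atf4ΔHep, while over 12756 genes it was -0.17 and -0.11. These correlations are across genes that share their libraries, and are given as descriptions. The 38 genes above the median length of 748 bases had a median averaged log2 fold change of 0.13, and the other 39 had 0.07.

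The deletion of Atf4 was compared within each treatment, in the same 8 libraries as the TCS comparisons. Levels in the genotypes lay close together. The sum over the 78 genes was 1.07% higher in hUGT1/Atf4ΔHep than in hUGT1/Atf4F/F under vehicle and 0.889% higher under TCS, less than the gap between the replicate libraries of either hUGT1/Atf4F/F group. None of the 78 passed edgeR's adjusted p under vehicle (0.00734% of all genes called higher and 0.0147% lower), under TCS (0.00734% and 0.0147%) or averaged (0.022% and 0.022%), nor did any with DESeq2. At an unadjusted p under 0.05, 2 were higher and 1 lower under vehicle (2.6% and 1.3%, against 1.28% and 1.58% of all genes). Under TCS there were 0 either way (against 1.42% and 1.75%), and in the averaged comparison 4 higher and 0 lower (against 1.83% and 2.07%). The 4 (5.1% of 78) were Cox6b2 (log2 fold change 0.54, SE 0.196), Ndufb7 (0.12, SE 0.049), Atp5e (0.12, SE 0.051) and Ndufs8 (0.12, SE 0.050), each at an edgeR adjusted p of 1.00. For no gene of the 78 were all 4 libraries of a genotype above (1.23% of all genes) or below (1.01%) all 4 of the other. The median of the averaged deletion effect was 0.01.

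Ndufb7, an accessory subunit of the membrane arm of complex I, was at 53.5 and 57.8 CPM in vehicle-treated and 59.8 and 62.4 CPM in TCS-treated hUGT1/Atf4F/F livers, against 62.8 and 61.9 CPM and 66.0 and 62.5 CPM in hUGT1/Atf4ΔHep. Genotypes separated under each treatment, although only narrowly under TCS. Atp5e, the ε subunit of F1, was at 56.3 and 53.1 CPM and at 58.9 and 59.7 CPM in hUGT1/Atf4F/F, against 65.4 and 59.4 CPM and 60.4 and 62.4 CPM in hUGT1/Atf4ΔHep, and the genotypes did not overlap under either treatment.

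The TCS effect was next compared between genotypes, as the interaction term, to ask whether it needed hepatocyte Atf4. No gene of the 78 passed, as no gene of all 13633 did (0% called in either direction by edgeR, and none by DESeq2). At an unadjusted p under 0.05 there was 1 of the 78 above 0 and none below (against 1.05% and 1.02% of all genes), namely Ndufb3, an accessory subunit of complex I. It was at 29.8 and 32.1 CPM under vehicle and 29.1 and 32.3 CPM under TCS in hUGT1/Atf4F/F, and at 27.0 and 26.3 against 33.2 and 33.4 CPM in hUGT1/Atf4ΔHep. TCS and vehicle overlapped in the former and separated in the latter, with a difference of log2 fold changes of 0.33 (SE 0.124, edgeR adjusted p 1.00). The median interaction over the 78 genes was -0.01. For Uqcrc1 the difference was -0.04 (SE 0.086) and for Uqcrc2 0.01 (SE 0.081), with 95% intervals of -0.24 to 0.15 and -0.18 to 0.19, whose outer ends are about as large as the averaged TCS effects of these genes.

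**Figure D5:**
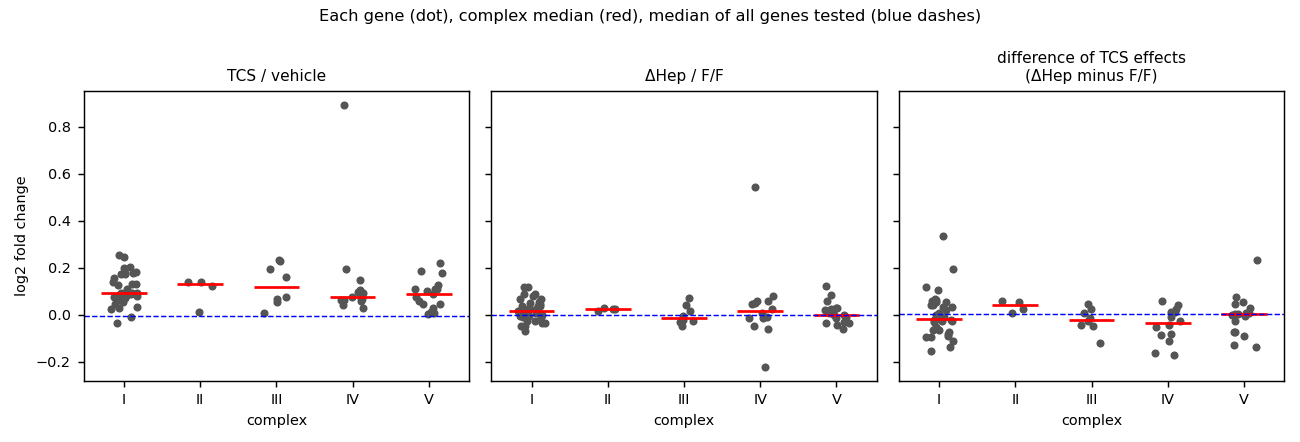
Fitted log2 fold changes (vertical axis) of the 78 genes (dots) by complex (horizontal axis) for TCS over vehicle averaged over genotypes, for hUGT1/Atf4ΔHep over hUGT1/Atf4F/F averaged over treatments, and for the difference between the TCS effects. Complex medians (red) are 0.07 to 0.13 for TCS and lie close to 0 for the other comparisons, and the dashed line is the median of all genes tested.

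Genes that work beside the chain were read from the same averaged TCS fit. Of all genes tested 2.02% were called higher there and 0.565% lower. At an unadjusted p under 0.05 the shares were 9.41% and 7.75%, and 48.5% of all genes lay above 0. Of 16 genes of the tricarboxylic acid cycle and pyruvate dehydrogenase, which supply its electrons, 3 were higher past the test (Dlst at 0.22, Suclg2 at 0.24 and Idh3b at 0.21), none lower, with a median of 0.15. Of 46 assembly factors tested none passed (6 higher and 1 lower at an unadjusted p under 0.05, median 0.07). Of 74 mitochondrial ribosomal protein genes 1 was higher (median 0.09), and of 69 cytosolic ribosomal protein genes none (10 higher and none lower unadjusted), with a median of 0.05 and 63 of 69 above 0. Among 12 regulators of mitochondrial biogenesis none passed, and at an unadjusted p under 0.05 none was higher and 2 were lower. Ppargc1a, a coactivator that drives biogenesis, was at 0.14 (SE 0.127), and Nrf1 at -0.26 (SE 0.087, edgeR adjusted p 0.178). Of 25 targets of PPARα, many of them genes of fatty acid oxidation, 18 were higher and none lower, at a median of 0.41. The respiratory chain median of 0.09 was thus level with that of the mitochondrial ribosomal proteins and below that of the PPARα targets, and differences between lists were not tested.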

How the data were processed

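RNA was taken from neonatal liver, 2 mice pooled per library, and stranded mRNA libraries were prepared. Per the submitters' processing notes, bcl2fastq 2.20 and STAR 2.7.9a were run with the mm10 build. The counter, the strand setting and the annotation are unknown, being not given in the sources used here. As the unit of measurement, the authors deposited raw counts per gene symbol for 8 libraries, 6184 genes being at 0 in all of them. Their tables of fold changes and p-values and a scaled version of the counts were not used.

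Counts were filtered with filterByExpr (minimum 10, total 15), scaled by TMM and fitted with edgeR 4.0.16 (glmQLFit and glmQLFTest, limma 3.58.1, R 4.3.3) over all 8 libraries with 1 mean per group. Contrasts were TCS within each genotype and averaged, deletion within each treatment and averaged, and the interaction, with Benjamini-Hochberg adjustment over 13633 genes and a threshold of 0.05. The script was tested on simulated data. Levels are library-scaled CPM, and precision is given as SE or as each library's value. The members and all gene lists were chosen with earlier results of these data known. Genes named were those called, the 2 with the smallest p for TCS and the first for deletion in each complex, those highest and lowest per kb, tissue isoforms and those at the count minimum. Ndufab1, Uqcrfs1, Ndufb3, Ndufb6, Ndufa8, Ndufs8, Atp5sl, Dlst, Suclg2, Idh3b and Alas2 were named after their values were seen. Levels per kb used the median basic protein-coding transcript, chosen after merged exon lengths proved distorted. In GENCODE M21, exons of 29 members overlap another gene, 25 of them on the other strand, and 5 members have named pseudogenes, so their counts are less certain. Alternatives were DESeq2 1.42.0, RLE factors, no filter, a threshold of 0.01, a replicate block, sex makeup (summed Y-linked CPM) as a covariate, the compared libraries alone, leaving out each library, and changes to the membership rule. Not every member is reported by name here.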

Additional observations from a re-analysis of the deposited data

How the results depend on the processing

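Each alternative moved the median of all 78 genes by less than its SD between replicates, 0.062, in every comparison. That is a loose bound, since the medians were themselves small. Without single libraries the median ranged from 0.070 to 0.114 for averaged TCS. It changed sign for averaged deletion (-0.012 to 0.032) and for the interaction (-0.044 to 0.035). The averaged complex I median of 0.09 ranged from 0.071 to 0.118 on leaving out single libraries, and 2 alternatives moved it past its own SD of 0.023. With total counts in place of TMM factors (chosen after seeing the data, as was the comparison at like Xist) the summed level under TCS was 9.14% above vehicle in hUGT1/Atf4F/F and 8.97% in hUGT1/Atf4ΔHep, and without single libraries it ranged from 5.58% to 10.2% and from 6.95% to 8.49%. Members called for averaged TCS numbered 2 as reported, 6 with no filter, 9 with DESeq2, 0 with sex makeup as covariate, 0 at an adjusted p of 0.01 and 0 to 2 without single libraries, where the 2 called without F/F TCS 1 were Ndufs7 and Uqcr11 in place of Uqcrc1 and Uqcrc2. Both of the latter kept their direction, and apart from fewer libraries the cause of the lost calls was not tested. The replicate numbers do not pair the samples (correlations of same-numbered deviations from -0.43 to 0.37), and with the replicate block 0 members were called, Uqcrc1 and Uqcrc2 being at edgeR adjusted p of 0.0538 and 0.0795. Cox8a for averaged TCS turned from 0.03 to -0.014 with sex makeup and ranged from -0.022 to 0.068 without single libraries, and Atp5g1 from -0.0060 to 0.061.

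Over all genes, calls for TCS in hUGT1/Atf4F/F numbered 76, with 139 under no filter, 20 with sex makeup, 33 in the compared libraries alone, 166 with DESeq2, 35 at an adjusted p of 0.01 and 33 to 165 without single libraries. In hUGT1/Atf4ΔHep there were 92, with 200 under no filter, 189 in the compared libraries alone, 221 with DESeq2, 40 at 0.01 and 11 to 107 without single libraries. The averaged comparison had 353, with 538 under no filter, 111 with sex makeup, 108 at 0.01 and 107 to 363 without single libraries. For deletion there were 3 under vehicle (5 with sex makeup, 5 with DESeq2), 3 under TCS (5 with no filter, 7 with DESeq2, 2 to 31 without single libraries) and 6 averaged (3 with the replicate block, 12 with DESeq2, 3 at 0.01, 3 to 4 without single libraries), and the interaction had 0 (1 with sex makeup). The count over all genes with DESeq2 for averaged TCS is not listed here, so the 9 members called with DESeq2 have no background share. The depth limits Cox6b2, Ndufa4l2 and Atp5s most, at 25 to 147 counts a library.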

Other observations

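Some genes of the same machinery carry symbols outside those chosen. Usmg5, a small membrane subunit of the ATP synthase, was at 52.8 to 58.7 CPM over the 8 libraries, with an averaged log2 fold change for TCS of 0.03 (SE 0.051). Atpif1, which encodes the inhibitor of ATP hydrolysis by the synthase, was at 20.1 to 27.95 CPM, at 0.11 (SE 0.112). Cycs, the cytochrome c that carries electrons from complex III to complex IV, was at 60.3 to 76.6 CPM, at 0.09 (SE 0.084, edgeR adjusted p 0.640). None of these passed the test.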
